A study of Equus caballus with 13 samples.

Results

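The dual-specificity phosphatases (DUSPs) examined here are enzymes that remove phosphate from mitogen-activated protein kinases (MAPKs). The set named 9 genes, taken by symbol from both deposited RNA kinetics tables: DUSP1, DUSP4, DUSP5, DUSP6, DUSP7, DUSP8, DUSP10, DUSP14 and DUSP16. Of these, 7 were listed in both tables, and DUSP4 and DUSP8 were listed by symbol in neither. The 7 stood among 11056 genes in the table for age and 11249 in the table for sex, of which 10974 were in both.

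The cells were wild-type horse chondrocytes freed from cartilage and cultured for 2 days. They were exposed for 4 h to 4-thiouridine (4sU), a uridine analogue that marks newly made RNA. The 3 groups held 13 samples, of which 5 were from old females, 5 from young females and 3 from young males, all 4sU-treated. The labels stated no ages in years, and every group was a culture rather than tissue taken directly from the joint. The series asked how age and sex act on RNA control after transcription. Each table gave a synthesis rate (arbitrary units) and a half-life (assumed to be in hours) for each gene and group. The 5 young female samples served as the reference in both tables, so the comparisons by age and by sex share their controls.

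MAPKs such as ERK, JNK and p38 are switched on by phosphorylation of a threonine and a tyrosine, and DUSPs switch them off by removing both phosphates. Many DUSP genes are themselves induced by MAPK signalling, which makes a negative feedback loop, and several of their mRNAs are known to turn over quickly. In chondrocytes, MAPK signalling downstream of growth factors, cytokines and mechanical load takes part in the control of matrix synthesis and of matrix-degrading enzymes. DUSP1, DUSP4 and DUSP5 are inducible nuclear enzymes, of which DUSP5 acts on ERK. DUSP6 and DUSP7 are cytoplasmic and act on ERK. DUSP8, DUSP10 and DUSP16 act mainly on JNK and p38, and DUSP14 is a small atypical enzyme that lacks the MAPK-docking domain of the others.

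Every gene had a single value for each group, so there was no replicate error, no depth per sample and no test across animals. Differences are given by size, and a gene is called past the threshold at a 2-fold difference (an absolute log2 ratio of at least 1). Besides the authors' values, an implied steady-state level (arbitrary units) was computed as the product of synthesis rate and half-life over ln 2, which assumes constant RNA levels during labelling. The 13 samples carried 12 batch labels and only batch 10 spanned 2 groups (1 young female sample with 1 young male sample), so batch and group cannot be told apart. All 8 chondrocyte markers were listed in both tables. The macrophage and endothelial lists were represented only by CD14 and VWF, and of the erythroid and adipocyte lists 0 markers were listed. Fibroblast markers differed widely between groups, with a median log2 ratio of implied level of −1.12 over the 5 listed in old cells and 1.97 over the 6 listed in male cells. All 5 were lower in old and all 6 higher in male cells. For the chondrocyte markers these medians were −0.48 and 1.21, with 5 of 8 lower in old and 7 of 8 higher in male cells. In cultures of this kind, fewer cells of a type and less RNA per cell cannot be told apart, and the part of these marker shifts in the DUSP values was not tested.

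The listed DUSP mRNAs were short-lived in every group. In young female cells of the age table their median half-life was 1.12 h, against 3.64 h for all genes, and their median rank was at percentile 8.73 of all half-lives. In old female cells the corresponding half-lives were 0.840 and 3.43 h. In the sex table they were 1.13 and 3.74 h in young female cells and 0.693 and 4.63 h in the male cells. A half-life under 1 h was listed for 3 of 7 members in young female cells (5.95% of all genes in the age table) and for 4 of 7 in old cells (8.29% of all genes). In the sex table it was listed for 3 of 7 in young female cells (4.95% of all genes) and for 4 of 7 in male cells (5.82% of all genes). The members were thus concentrated at the fast end of the range, with DUSP14 as the exception.

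**Figure D1:**
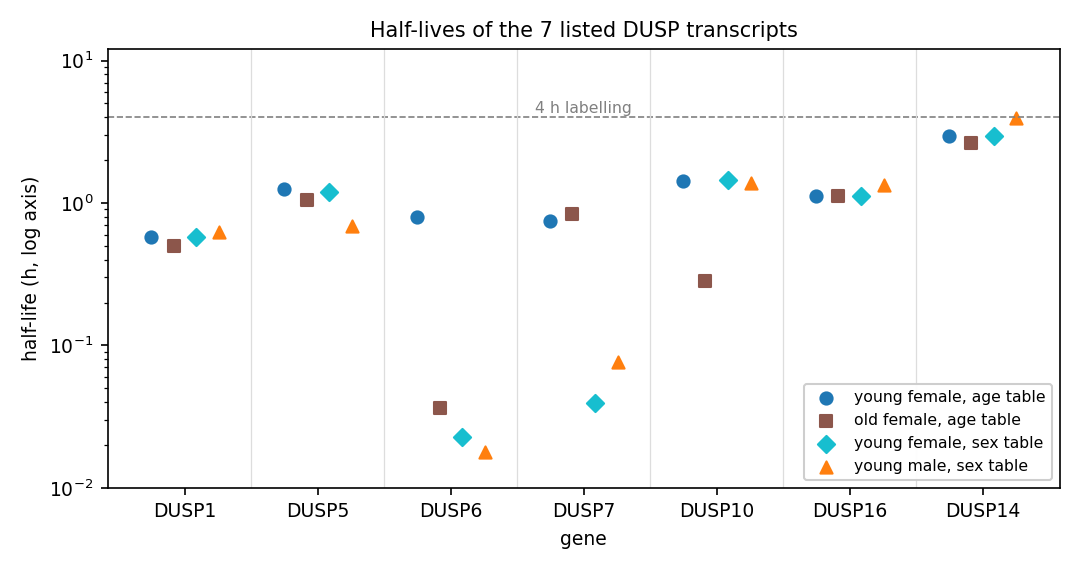
Half-life in hours (log axis) of each listed DUSP in the 4 group columns of both tables; each point is 1 group value given by the authors, with no replicate error, and the dashed line marks the 4 h of labelling. DUSP1, DUSP16 and DUSP14 had similar values in all columns and DUSP5 was lower in male cells (0.693 h), while DUSP6 and DUSP7 lay near 0.8 h in some columns and under 0.1 h in others, and DUSP10 was under 1 h in old cells alone.

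DUSP1, a nuclear phosphatase induced within minutes by stress and growth factors, had a short half-life that hardly differed between columns. It was 0.576 h in young female and 0.49999 h in old female cells by the age table, and 0.575 h in young female and 0.629 h in male cells by the sex table. The synthesis rate of DUSP1 was 20124 in young female and 15537 in old cells, and 19249 in young female and 16036 in male cells. Old cells were therefore lower in both parameters, and the implied level of DUSP1 was 11208 against 16720, a 1.49-fold difference (log2 ratio −0.58). In male cells it was 14559 against 15962 (log2 ratio −0.13), a difference far under the threshold.

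DUSP5, the inducible nuclear ERK phosphatase, was the member with the largest difference in implied level in both comparisons. Its synthesis rate was 317 in young female and 80.6 in old cells, while its half-life was 1.25 and 1.04 h. The implied level of DUSP5 was thus 572 in young female and 121 in old cells, 4.71-fold lower (log2 ratio −2.24), and nearly all of that difference lay in synthesis (log2 ratio −1.98, against −0.26 for half-life). In the sex table the synthesis rate of DUSP5 was 317 in young female and 218 in male cells, and its half-life 1.19 and 0.693 h. Both parameters were lower in male cells, and the implied level was 218 against 545, 2.501-fold lower (log2 ratio −1.32). Centred within deciles of half-life, the male log2 ratio of DUSP5 level was −0.97, just under the threshold. Here and below, the deciles for male ratios were set by the old female half-life, which has no part in those ratios. Beside DUSP5, log2 ratios of implied level ranged from −2.86 (COL1A1) to −0.13 (PDGFRB) over the 5 fibroblast markers in old cells, and from 0.26 (PDGFRB) to 4.19 (COL1A1) over the 6 in male cells; their part in the DUSP5 values was not tested.

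DUSP6, the cytoplasmic ERK phosphatase often used as a readout of ERK activity, had a half-life of 0.797 h in young female and 0.0361 h in old cells by the age table. Its synthesis rate was 961 in young female and 17078 in old cells. Read from that table alone, DUSP6 mRNA decayed 22.1-fold faster and was made 17.8-fold faster in old cells. The sex table, built in part from the same 5 young female samples, gave DUSP6 a half-life of 0.0229 h and a synthesis rate of 30884 in young female cells. Against these values the old half-life of DUSP6 was 1.58-fold longer (log2 ratio 0.66) and its synthesis rate lower (log2 ratio −0.85), so the direction of both ratios turned with the choice of table. Young male cells, with a half-life of 0.0179 h and a synthesis rate of 19798, were lower than young female cells of their own table by log2 ratios of −0.36 and −0.64. Against the age table's young female values the male log2 ratios of DUSP6 became −5.48 for half-life and 4.36 for synthesis rate, so the direction of the latter turned as well.

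The implied level of DUSP6 depended far less on the table. It was 1106 in young female and 889 in old cells by the age table (log2 ratio −0.31), and 1020 in young female and 510 in male cells of the sex table (log2 ratio −0.999, just under the threshold). Half-life and synthesis rate of DUSP6 thus moved by large and opposite amounts, while their product differed little between the 2 young female estimates (0.923-fold). With young female values taken from the opposite table, the log2 ratios of DUSP6 level were −0.20 for old and −1.12 for male cells. Centred within half-life deciles, the male log2 ratio of DUSP6 level was −0.65.

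DUSP7, the other cytoplasmic ERK phosphatase, also differed strongly between the tables. Its young female half-life was 0.752 h in the age table and 0.0392 h in the sex table, and its young female synthesis rate was 2475 and 44193. In the age table old cells had a half-life of 0.840 h and a synthesis rate of 1671, so the log2 ratios were 0.16 and −0.57 relative to young female cells. In the sex table male cells had a half-life of 0.0762 h and a synthesis rate of 22056, which gave log2 ratios of 0.96 and −1.00. With the age table's young female values the male log2 ratios of DUSP7 became −3.30 for half-life and 3.16 for synthesis rate. Its implied level was 2686 in young female and 2024 in old cells (log2 ratio −0.41), and 2500 in young female and 2424 in male cells (log2 ratio −0.04). At the level of implied abundance DUSP7 was thus 1.33-fold lower in old cells and within a few percent in male cells. Centred within half-life deciles, the male log2 ratio of level was 0.31 for DUSP7, 0.22 for DUSP1 and 0.30 for DUSP10, so the direction of these 3 turned.

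**Figure D2:**
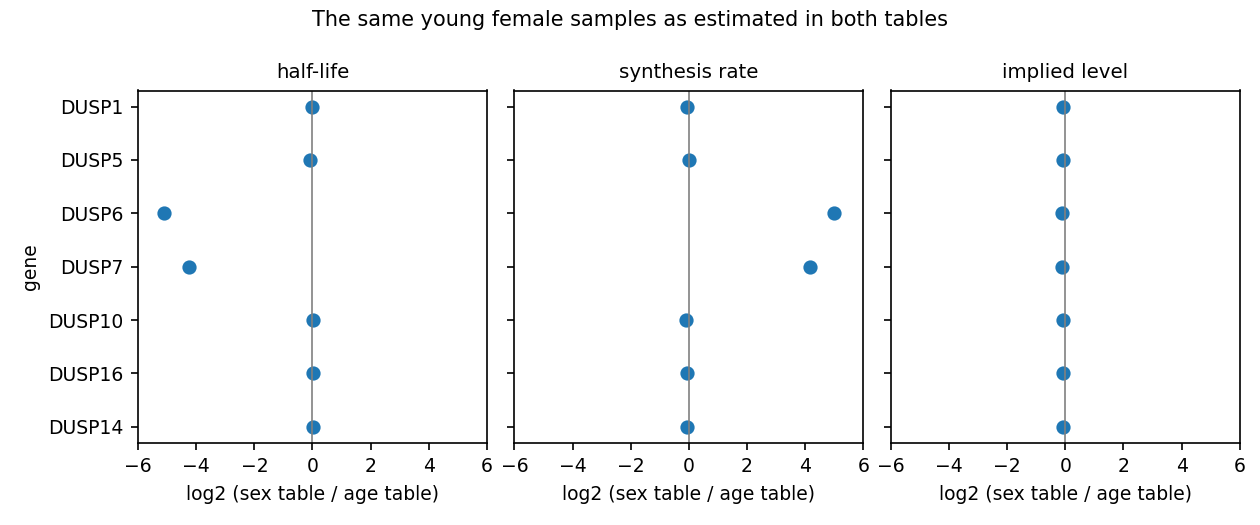
Log2 ratio of the sex table's to the age table's young female value for the half-life (left), synthesis rate (middle) and implied level (right) of each listed DUSP; each point is 1 gene. DUSP6 and DUSP7 moved by −5.12 and −4.26 in half-life and by 5.01 and 4.16 in synthesis rate, while all 7 implied levels lay between −0.12 and −0.07.

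The young female estimate was given in both tables from the same samples, so its repeat shows only how far a value moved between the estimates. It does not measure differences between animals, and it does not cover the old or male values. For DUSP1, DUSP5, DUSP10, DUSP14 and DUSP16 the 2 young female half-lives differed by log2 ratios of −0.07 to 0.02. For DUSP6 and DUSP7 they differed 34.8-fold and 19.2-fold. Implied levels of the sex table were 0.923-fold (DUSP6) and 0.931-fold (DUSP7) those of the age table, against a median of 0.955-fold for all shared genes. These offsets were small, but lay outside the range of nearly all genes, since the 95th percentile of the deviation from that median was 0.00092 log2 units. Ranked by the size of the shift in half-life, DUSP6 was at place 34 and DUSP7 at place 60 among 10974 shared genes. In all, 96 shared genes (0.875%) were under 0.1 h in young female cells of one table and not of the other, 34 of them under it in the sex table alone, as were DUSP6 and DUSP7. Ordered by the old half-life, which has no part in this repeat, 16.4% of the 146 genes under 0.5 h and 8.18% of the 758 genes from 0.5 to 1 h moved at least 2-fold. From 1 to 2 h the share was 0.667% of 2547 genes, and from 2 to 24 h 0.0445% of 6746. DUSP1, at 0.49999 to 0.629 h, hardly moved.

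The half-lives can be restated as the share of molecules that predate the labelling. Under constant decay a half-life of 0.797 h leaves 3.09% of DUSP6 molecules older than the labelling period, and one of 0.0229 h leaves effectively none. For DUSP7 in young female cells of the age table the unlabelled share would be 2.51%. These shares are computed from the half-lives themselves, and whether a small unlabelled share is why the estimates differ between tables was not tested. For DUSP1 the share was 0.811% in young female and 0.391% in old cells by the age table. For DUSP14 it was 39.2% in young female cells.

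DUSP10, a phosphatase of JNK and p38, had a half-life of 1.44 h in young female and 0.284 h in old cells, with synthesis rates of 112 and 430. Its log2 ratios of −2.34 for half-life and 1.94 for synthesis rate were past the threshold in opposite directions, and its implied level was 176 against 233 (log2 ratio −0.40). The young female half-life was steady, at 1.46 h in the sex table, and with that table's values the log2 ratio of half-life in old cells was −2.36. The old value appears in 1 table only and had no second estimate. It corresponds to an unlabelled share of 0.0058%, against 14.5% in young female cells. In male cells DUSP10 hardly differed, with half-lives of 1.38 and 1.46 h, synthesis rates of 107 and 106 and a log2 ratio of implied level of −0.05.

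DUSP16, which acts mainly on JNK, was the member with a higher implied level in old cells. Its half-life was 1.12 h in young female as in old cells by the age table, and its synthesis rate was 754 and 876, giving implied levels of 1216 and 1412 (log2 ratio 0.22). In male cells the half-life of DUSP16 was 1.33 h against 1.13 h in young female cells, and its synthesis rate was 384 against 715. The implied level was 736 against 1161, 1.58-fold lower in male cells (log2 ratio −0.66, or −0.35 centred within half-life deciles). DUSP16 was therefore slightly higher in old and lower in male cells than in young female cells.

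DUSP14, the atypical member, had the longest half-life of the 7 in every column. It was 2.96 h in young female and 2.65 h in old cells, and 2.97 h in young female and 3.96 h in male cells. Its synthesis rate was 189 in young female and 175 in old cells, and 179 in young female and 117 in male cells. Implied levels of DUSP14 were slightly lower in both groups, with a log2 ratio of −0.27 in old cells and one of −0.20 in male cells. The longer male half-life (log2 ratio 0.41, against a median of 0.27 for all genes) was offset by the lower synthesis rate (−0.61, against −0.28 for all genes).

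**Figure D3:**
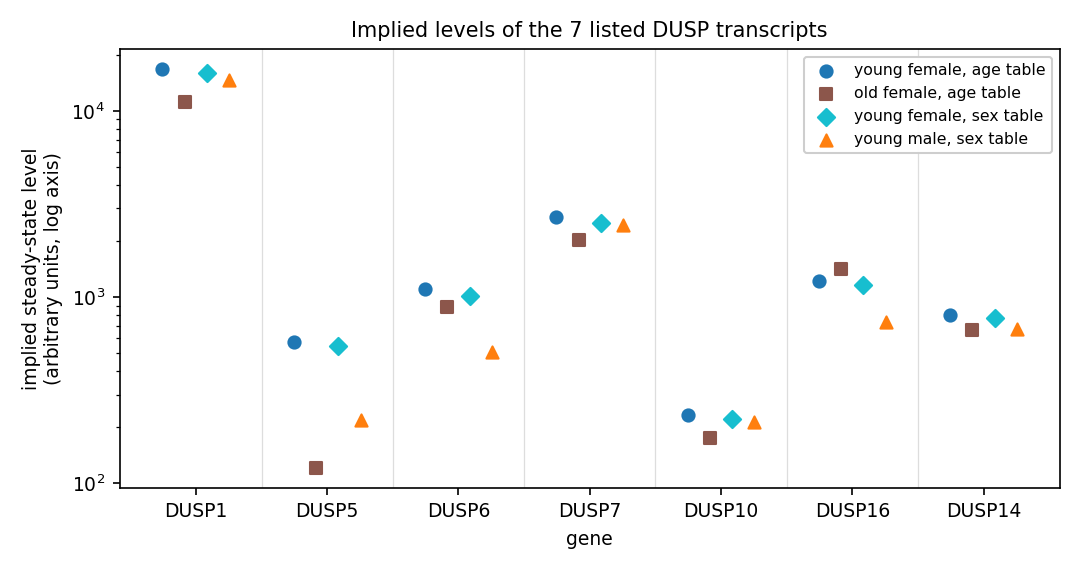
Implied steady-state level (synthesis rate times half-life over ln 2, arbitrary units, log axis) of each listed DUSP in the 4 group columns; each point is derived from 1 pair of group values, with no replicate error, and levels are to be compared within a gene only. DUSP5 stood furthest from its young female values, at 121 in old and 218 in male cells, while both young female points lay close together for all 7 genes.

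Counted over the members in old cells, 2 of 7 were past the threshold for half-life, both shorter (DUSP6 and DUSP10), against 2.06% of all genes shorter and 1.47% longer. For synthesis rate 2 of 7 were past it upward, the same genes DUSP6 and DUSP10, against 4.59% of all genes, and 1 downward, DUSP5, against 2.92%. With the sex table's young female values DUSP6 dropped out of both counts and DUSP7 entered them, with a half-life log2 ratio of 4.42 and a synthesis log2 ratio of −4.72. The shares of all genes with those values were not computed. For implied level 1 of 7, DUSP5, was past the threshold downward and 0 upward, against 1.99% and 2.13% of all genes. Implied levels were below the young female value for 6 of 7 members, with a median log2 ratio of −0.40 against 0.00 for all genes, of which 49.3% were lower.

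In male cells 0 of 7 members were past the threshold for half-life, against 5.62% of all genes longer and 1.96% shorter. With the age table's young female values 2 of 7 were past it, DUSP6 (−5.48) and DUSP7 (−3.30), both shorter. The shares of all genes past the threshold with those values were not computed, for half-life or for synthesis rate. For synthesis rate 1 of 7, DUSP7, was past it downward, against 8.37% of all genes, and 0 upward, against 3.78%. With the age table's young female values 0 were past it downward and 2 upward, DUSP6 (4.36) and DUSP7 (3.16). The value of DUSP7 (log2 ratio −1.00) was at the limit, and it was −0.72 relative to the median of all genes. For implied level 1 of 7, DUSP5, was past the threshold downward and 0 upward, against 1.61% and 3.00% of all genes. All 7 members had a lower implied level in male cells, with a median log2 ratio of −0.20 against 0.01 for all genes, of which 49.5% were lower. After centring within deciles of old female half-life the direction was divided: 4 of 7 members were lower and the median was −0.12. DUSP10 was thereby placed among the fastest genes, by its old half-life of 0.284 h (percentile 1.19).

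By role, the nuclear members DUSP1 and DUSP5 had log2 ratios of implied level from −2.24 to −0.58 in old and from −1.32 to −0.13 in male cells. The cytoplasmic ERK phosphatases DUSP6 and DUSP7 ranged from −0.41 to −0.31 in old and from −0.999 to −0.04 in male cells. The JNK and p38 phosphatases DUSP10 and DUSP16 ranged from −0.40 to 0.22 in old and from −0.66 to −0.05 in male cells. DUSP6 and DUSP7 were close to each other in old cells, and DUSP5 set the lower end in both comparisons.

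**Figure D4:**
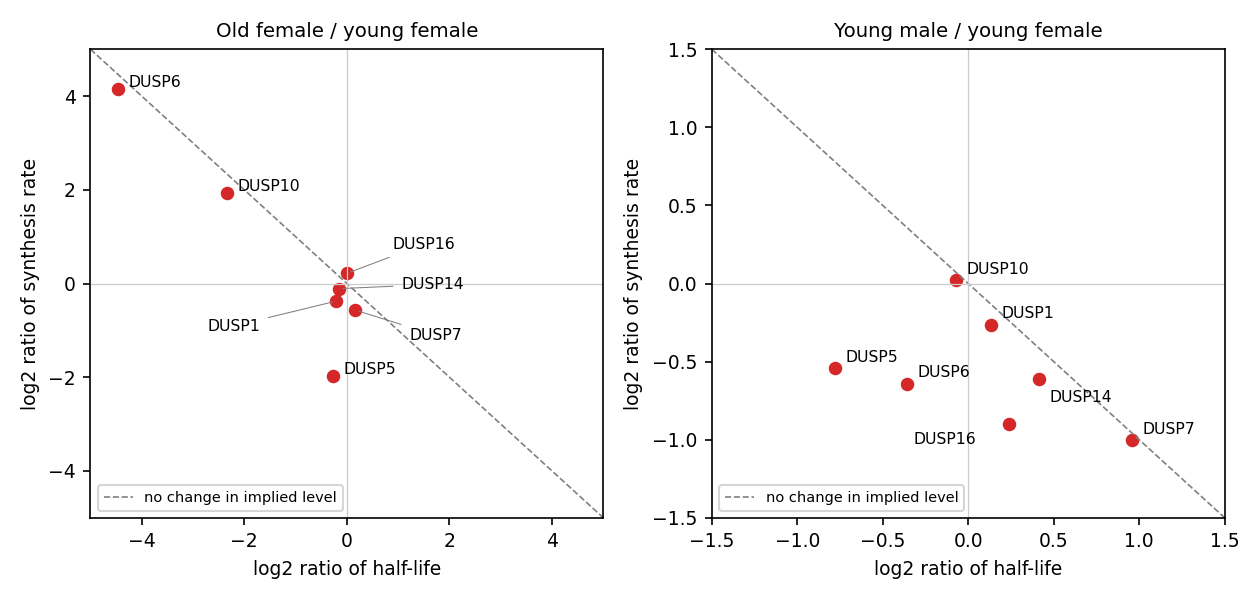
Log2 ratio of half-life (x axis) and of synthesis rate (y axis) of each listed DUSP in old against young female cells (left) and young male against young female cells (right), each within its own table; the dashed diagonal marks no change in implied level, and the panels have different scales. In old cells DUSP6 and DUSP10 lay far out but near the diagonal, whereas DUSP5 lay 2.24 log2 units below it; in male cells all 7 genes lay below the diagonal.

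Other dual-specificity phosphatases, the slingshot phosphatases SSH1 to SSH3 and STYX-type relatives included, had longer half-lives by their median. Of 21 named, 12 were listed in the age table, with a median young female half-life of 5.12 h, and 11 in the sex table, with a median of 5.01 h. DUSP3 (1.42 h), SSH2 (1.49 h), DUSP23 (1.66 h) and SSH1 (2.29 h), by their young female half-lives in the age table, overlapped the members. In old cells SSH2 (0.750 h) and DUSP23 (0.922 h) were under 1 h. In old cells 1 was past the threshold for half-life, STYXL1 (5.40 to 11.3 h, log2 ratio 1.06, against 1.47% of all genes longer), and 1 for synthesis rate, DUSP26 (log2 ratio 1.42, against 4.59% of all genes higher). In male cells 1 was past it for synthesis rate, the cofilin phosphatase SSH2 (log2 ratio −1.14, against 8.37% of all genes lower), which had an implied level log2 ratio of −1.01. Their median log2 ratios of implied level were −0.05 in old and 0.01 in male cells, with 6 of 12 and 5 of 11 lower. Those of the 7 members were −0.40 and −0.20, and the difference between the lists was not tested.

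Genes of the MAPK pathway upstream of the DUSPs were counted by tier. Of the 20 listed genes of the RAS to ERK cascade, and of the 19 of the JNK and p38 cascade, 0 were past the threshold in old cells for half-life or synthesis rate. The shares of all genes past it (1.47% longer and 2.06% shorter, 4.59% higher and 2.92% lower) leave few calls to be seen in lists of this size. In these cascades the median log2 ratios of implied level were −0.08 and 0.02, with 14 of 20 and 9 of 19 lower (49.3% of all genes). For level 1 gene, the stress-activated kinase MAP3K5, was past the threshold, upward, against 2.13% of all genes higher and 1.99% lower. Receptor tyrosine kinases and their ligands, 15 listed, also had 0 past it for half-life or synthesis rate, with a median log2 ratio of level of −0.43 and 9 of 15 lower. For implied level the growth factor FGF1 was past it upward and FGF18, a growth factor of cartilage, downward, against 2.13% and 1.99% of all genes. Of the fibroblast and chondrocyte markers 5 of 5 and 5 of 8 were lower in old cells (medians −1.12 and −0.48). The part of these markers in the values of the receptors and ligands was not tested.

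In male cells the synthesis rates of 3 of 15 receptors and ligands were past the threshold downward, against 8.37% of all genes: the growth factor TGFA (−1.17), the receptor PDGFRA (−1.09) and FGF2 (−1.05). TGFA had a half-life past the threshold, 4.67 against 1.97 h, as 5.62% of all genes were longer. FGF18 was past the threshold downward for implied level, against 1.61% of all genes. For synthesis rate 3 of 20 genes of the RAS to ERK cascade were past the threshold downward, against 8.37% of all genes. They were the small GTPase RRAS2 (−1.20), the kinase MAP2K5 (−1.08) and the RAS activator SOS1 (−1.07). In the JNK and p38 cascade 4 of 19 were past it downward for synthesis rate, against the same 8.37%. They were MAPK11 (−1.84), MAPK8 (−1.39), MAP2K6 (−1.33) and MAP3K20 (−1.04). MAPK8 encodes a JNK and MAPK11 a p38 kinase. Half-lives were past the threshold in 1 of 20 and 1 of 19, both longer, against 5.62% of all genes longer. They were 14.5 against 5.35 h for MAP2K5 and 47.0 against 10.5 h for MAPK11. For implied level 0 genes of either cascade were past the threshold in male cells, against 3% of all genes higher and 1.61% lower. The medians of level were −0.18 and −0.10 (0.04 and −0.01 centred within half-life deciles, an alternative added for all lists after seeing the data). These lower synthesis rates stood beside a median of −0.28 for all genes.

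Other feedback inhibitors of the pathway, such as the Sprouty proteins, had a median young female half-life of 1.18 h in the age table and 1.37 h in the sex table. In male cells 12 of 14 had a lower implied level (49.5% of all genes were lower), with a median log2 ratio of −0.32. Centred within half-life deciles, 7 of 13 were lower and the median was −0.03. For synthesis rate 2 of 14 were past the threshold downward, the RAS inactivator RASA2 (−1.41) and SPRY1 (−1.12), against 8.37% of all genes. For level 1 of 14 was, RASA2 (−1.40), against 1.61% of all genes. In old cells 7 of 13 were lower, with a median of −0.01. SPRY4 had a half-life of 0.0750 h in young female and 0.506 h in old cells, with a synthesis log2 ratio of −2.60 and an implied level log2 ratio of 0.15. As for DUSP6, the differences were opposite and the implied level hardly differed. The young female half-life of SPRY4 shifted by −0.25 log2 units between the tables, and its old value had no second estimate. PEBP1, an inhibitor of RAF, had a higher synthesis rate in old cells (1.18). Past the threshold in old cells was 1 of 13 for longer half-life, SPRY4, against 1.47% of all genes. For synthesis rate 1 was past it downward, SPRY4, against 2.92%, and 1 upward, PEBP1, against 4.59%.

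Genes that ERK signalling is known to induce, 13 listed, had a median young female half-life of 1.58 h. For implied level in old cells their median log2 ratio was −0.42, with 9 of 13 lower, against 49.3% of all genes. Past the threshold downward in level were 4, against 1.99% of all genes: FOSL1, CCND1 (−2.17), EPHA2 (−1.47) and PLAUR (−1.78). CCND1 encodes cyclin D1, and its half-life was 4.18 against 3.72 h, so that, as for DUSP5, the difference lay in synthesis (−2.34). ETV1 was past the threshold upward in level, against 2.13% of all genes. For synthesis rate in old cells the same 4 genes were past it downward, against 2.92% of all genes. Upward there were 2, PHLDA1 (3.42) and ETV4, against 4.59%. For half-life 1 gene was past it, PHLDA1, shorter, against 2.06%. Of the fibroblast and chondrocyte markers 5 of 5 and 5 of 8 were lower in old cells too (medians −1.12 and −0.48). The part of these markers in the values of the ERK output genes was not tested. PHLDA1 had a half-life of 0.0544 h in old against 0.780 h in young female cells with a level log2 ratio of only −0.42. Its young female half-life differed by 0.03 log2 units between the tables, but its old half-life had no second estimate. Of genes with an old half-life under 0.5 h, 16.4% moved at least 2-fold between the young female estimates. In male cells 8 of 13 were lower, with a median of −0.34. For level 0 were past the threshold there, against 1.61% of all genes lower and 3% higher. With deciles of half-life centred, 6 of 13 were lower in male cells and the median was 0.02. For synthesis rate in male cells 2 of 13 were past the threshold downward, MYC (−1.21) and EPHA4 (−1.18), against 8.37% of all genes. Upward there was 1 of 13, ETV1 (1.07), against 3.78% of all genes.

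The pattern over both comparisons was compared with that of all 10275 shared genes with a symbol, by the Euclidean distance over 4 log2 ratios (half-life and synthesis rate, by age and by sex). Nearest to the median profile of the members were DCPS, TTPAL, FXR2, PKN2 and MDN1, at distances of 0.10 to 0.13. Nearest to single members were LMO4 for DUSP1 (0.10), NR2C1 for DUSP16 (0.05), PSMD6 for DUSP14 (0.08) and RNF7 for DUSP7 (0.17). DUSP5, DUSP6 and DUSP10 had no close neighbour, the nearest being MCAM (0.62), CASP8 (0.58) and CDH24 (0.74). With young female values exchanged between the tables, an alternative added after seeing the data, LMO4, NR2C1, MCAM and CDH24 were again nearest to DUSP1, DUSP16, DUSP5 and DUSP10. For DUSP6, DUSP7 and DUSP14 the nearest became NHS (0.48), ZNF79 (2.15) and POLR3K (0.08), and all 5 genes nearest to the median profile were replaced, the nearest being KLHL21 (0.08). The profiles rest on 4 values that share the young female reference.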

How the data were processed

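Per the labels' protocols, RNA was alkylated with iodoacetamide, and strand-specific libraries were made after poly(A) selection. The submitters' processing notes name cutadapt 4.5, STAR 2.5.3 and the build EquCab3.0; the kinetic model, the gene filter and the way samples were combined are not given in the sources used here. The authors deposited 2 tables with a synthesis rate and a half-life per gene and group, with no unit, counts or p-values, and depth is unknown. Half-lives were assumed to be in hours, the unit in which the labelling time is given; they stop at 69.3, which is ln 2 over 0.01. The column headed "Young" was read as young female from the samples' labels.

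Log2 ratios were computed within a table with Python 3.11.15, numpy 2.4.6 and pandas 2.3.3, without pseudocount or filter, and checked on made-up tables with known ratios. No test across samples could be run on group values; the design had provided for one on values per sample. Members, gene lists and thresholds were chosen with earlier results of these data known. Named genes were all members, up to 4 genes per pathway list and comparison past 2-fold in half-life or synthesis rate, and the nearest profiles. FOSL1, ETV1 and ETV4 in old cells, FGF1, FGF18, MAP3K5 and short-lived DUSP3, SSH1, SSH2 and DUSP23 were added after their values were seen. All 9 symbols matched RefSeq. Coordinates and sequences were not used here.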

Additional observations from a re-analysis of the deposited data

How the results depend on the processing

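A median counted as moved beyond a limit of 0.183 log2 units, the 95th percentile of the half-life shift between both young female estimates, and a count beyond 1.5 times. The same limit was used for medians of synthesis rate and implied level, although the 95th percentile for level was 0.00092. The members' median half-life percentile (8.73, with 9.94 and 7.65 in its alternatives) had a separate limit. Of 80 alternative values for the members as a group, 52 stayed within these limits and 28 moved. The alternative without DUSP6 and DUSP7, and those for single members, were added after seeing the data.

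With young female values taken from the other table, DUSP6 in old cells turned from −4.47 to 0.66 in half-life and from 4.15 to −0.85 in synthesis rate. In male cells synthesis rates turned from −1.00 to 3.16 for DUSP7 and from −0.64 to 4.36 for DUSP6, and the half-life of DUSP7 from 0.96 to −3.30. The members' median for synthesis rate became −0.31 in old cells and −0.33 in male cells, and that for male half-life −0.054. Counts of members past 2-fold in male cells became 2 each for half-life, synthesis rate and level (for level DUSP5 and DUSP6). Centred on all genes, the male medians were −0.14 for half-life and −0.33 for synthesis rate, with 1, 0 and 2 members past 2-fold for half-life, synthesis rate and level. Within half-life deciles the male synthesis median was −0.24, with 0 members past 2-fold for synthesis rate or level. Among half-lives of 1 to 24 h, where 3 members were left in each comparison, 0 were past 2-fold for half-life and 1 for synthesis rate in old cells, and 0 for synthesis rate and level in male cells. In the upper 75% of genes by level, where DUSP5 and DUSP10 dropped out, 1, 1 and 0 were past it for half-life, synthesis rate and level in old cells and 0 for level in male cells. At a threshold of 0.5 there were 2 for level in old cells, and 2, 5 and 3 for half-life, synthesis rate and level in male cells. Shares of all genes past 2-fold were computed for the main setting only, and those past 0.5 were not computed. The counts given so far under these alternatives therefore cannot be set against such shares. Without DUSP6 and DUSP7 there was 1 for half-life in old and 0 for synthesis rate in male cells. Fewer genes entered the restricted counts; the cause of the other shifts was not tested. DUSP5 was past 2-fold downward for level in old cells in every alternative that kept it.

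No paired analysis was possible because the tables hold group values only, and leaving out single replicates was not run for the same reason. The absence of replicate values and of depth limits every difference above.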
